A study of Mus musculus with 10 samples.

Results

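Kinase-dead Cdk6-K43M was set against wild-type Cdk6 in mouse bone marrow cells transformed by BCR-ABL. The data described here are the 4 Cdk6-K43M samples, each on its own 2-colour Agilent array, and 1 further array that held the pooled RNA of those samples with the dyes exchanged. They were chosen by their titles and make up 4 of 8 samples and 5 of 10 arrays in the series. The other samples are 4 samples labelled Cdk6-/-, the knockout genotype, with a dye-swap array of their own. Every array carried the same Cdk6+/+ reference, a pool of the RNA of 4 wild-type samples. All genotypes shared 1 protocol. Bone marrow of donor mice aged 6 weeks was transduced with retrovirus and seeded in methylcellulose with no growth factor added, and after 10 days colonies were picked. The samples are labelled BCR-ABL+, and the labels name neither the form of BCR-ABL nor the sex of the donors. RNA came from individual colonies, and the numbers of colonies and of mice behind a sample are not given. The series calls the samples biological replicates, but nothing states that they came from separate mice or cultures, so p-values measure only the spread between these samples.

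CDK6 is a G1 kinase that binds D-type cyclins and phosphorylates the retinoblastoma protein, which releases E2F factors and starts the transcription of S-phase genes. In blood cells it also sits on chromatin and acts on transcription, in part without its kinase activity. The K43M change replaces the lysine of the ATP pocket with methionine, so that the protein can still be made but cannot transfer phosphate. BCR-ABL is the fusion tyrosine kinase that drives chronic myeloid leukaemia and some acute lymphoblastic leukaemias, and it lets bone marrow progenitors form colonies without added cytokines. Comparing Cdk6-K43M with Cdk6+/+ asks which transcripts differ in transformed colonies when the protein is present and its kinase activity is lost.

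Values are log2 ratios of Cdk6-K43M over the wild-type pool, so that 1 is a 2-fold difference. Between 46.9% and 49.9% of probes stood well above background in the mutant channel, and no spot was saturated. The 4 arrays limit the precision of every value. Replicate 4 stood apart from the rest. Across genes, which are not independent replicates, its ratios correlated with those of the other 3 samples at Pearson's r of 0.32 to 0.44, while the others correlated with each other at 0.54 to 0.67. Replicates 2 and 4 and the swapped pool shared a slide, and replicates 1 and 3 lay on the other slides. Results are therefore given with and without replicate 4 where they rest on it. The fitted change of a gene combines the 4 samples and their swap with a term for dye bias that both genotypes share. The Cdk6-/- arrays therefore also move it, and it need not lie between the samples' mean and the swap. For Mtus2 these stood at -2.50 and -2.77 and the fit at -2.40. The standard error comes from the spread between single samples of both genotypes. Where the dye-swap array is said to be left out, the Cdk6-K43M swap was dropped. The dye term then came from the Cdk6-/- arrays alone, which widens the standard error.

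Cdk6 on chromosome 5 was measured by a single probe, detected above background in each channel. Its log2 ratio to the pool was 0.31, 0.40, 0.33 and 0.83 in replicates 1 to 4 and 0.33 on the dye-swap array. Replicate 4 was the highest, and all 5 arrays lay above 0. The fitted Cdk6 level rose by 0.35 (SE 0.10, limma adjusted p = 0.0429). This call was lost under 13 of 22 alternatives, among them leaving out replicate 1, 2 or 3 and leaving out the dye-swap array (0.25, adjusted p = 0.427). The probe does not read the codon change itself. In the 4 samples labelled Cdk6-/- the Cdk6 ratio was -0.37, -0.40, -0.18 and 0.00, and the probe was well above background in all 4. The Cdk6-/- change of -0.41 (SE 0.10, limma adjusted p = 0.0586) did not pass, though it was larger in size than the Cdk6-K43M rise at the same SE. The Cdk6-K43M and Cdk6-/- samples did not overlap for Cdk6. Signal thus remained in Cdk6-/-, at a lower level by the point estimate. The sources used do not say whether the deleted stretch covers the probe, which therefore does not check that label. Below, Cdk6-/- stands for the samples so labelled.

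With dim probes left out, 22008 genes entered the test, and 3597 of them (16.3%) passed limma's test at a Benjamini-Hochberg adjusted p of 0.05. Of these, 1740 (7.91%) were higher and 1857 (8.44%) were lower in Cdk6-K43M. A change of at least 2-fold was seen in 140 higher and 120 lower genes. At an unadjusted p under 0.05 by limma, 3307 genes were higher and 3488 lower. Without the dye-swap array no such count over all genes was made. Unadjusted list counts in that setting therefore have no share of all genes beside them. One sign on all 5 arrays was shown by 3295 of the 3597 genes, against 29.8% of all genes tested. The calls rest on these same arrays, so the shared sign adds no separate support. The count depended on how dye bias was handled: without the Cdk6-K43M dye-swap array 535 genes passed. Without both swapped arrays and the dye term, and so with no correction for dye bias, 5510 passed. The count of 3597 also leaves out the spread of the wild-type pool, which is 1 control sample. When the standard errors were widened as if the pooled wild-type samples varied like the mutant ones, 762 genes (3.46%) passed. Without replicate 4 the count was 3347 (15.2%). With each array centred on its median in place of loess, 5730 genes passed and 5068 of them were higher. That is 88.4%, against 48.4% with loess, as the median of all genes moved from -0.01 to 0.11. List counts with median centring therefore stand against a raised count of higher genes overall in that setting.

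**Figure D1:**
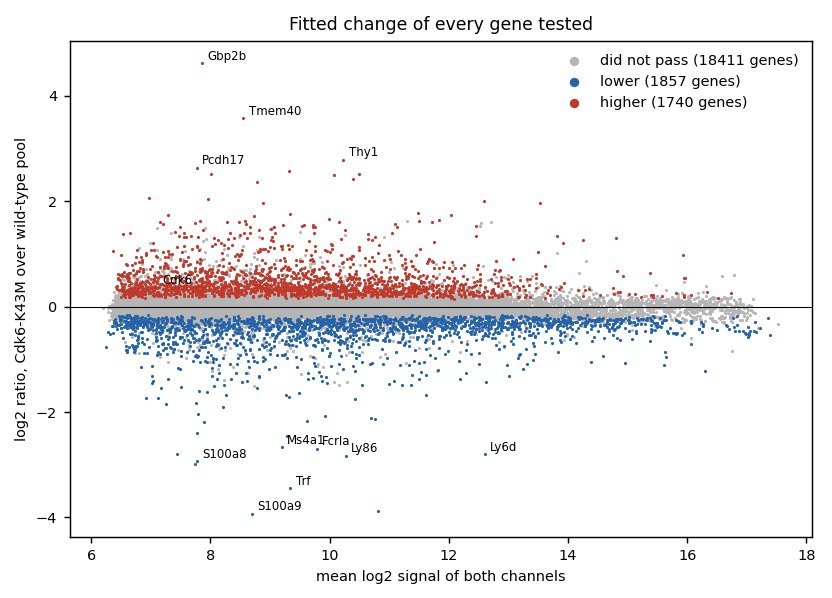
Fitted log2 ratio of Cdk6-K43M over the wild-type pool (vertical axis) against the mean log2 signal of both channels (horizontal axis) for the 22008 genes tested. Red and blue points are the 1740 higher and 1857 lower genes, grey points did not pass, and the labelled genes are Cdk6 and those of the named genes with the largest changes, from Gbp2b at 4.62 to S100a9 at -3.94.

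The largest decrease among genes with a plain symbol was that of S100a9. It pairs with S100a8 to form calprotectin, the abundant calcium-binding protein of neutrophils and monocytes. S100a9 stood at -4.20, -4.20, -4.24 and -3.48 in replicates 1 to 4 and at -3.86 on the dye-swap array. It fell by 3.94 (SE 0.14, adjusted p = 3.7e-06). S100a8 stood at -3.17, -3.09, -3.08 and -2.47, with a fitted change of -2.94 (SE 0.13, adjusted p = 1.51e-05). Both genes were least reduced in replicate 4, and every sample lay far below the pool. S100a8 was well above background in 1 of 4 samples and in 10 of 10 wild-type channels, so its low end is set by the background. Trf, the iron carrier transferrin, stood at -3.59, -3.61, -3.65 and -2.78 and fell by 3.45 (SE 0.13, adjusted p = 5.57e-06). These 3 genes kept their call under each of the 22 alternatives. In Cdk6-/- against the same pool, S100a9, S100a8 and Trf had fitted changes of -4.16, -3.16 and -3.39. Their differences between the genotypes did not pass limma's test (adjusted p = 0.614, 0.674 and 0.889), so these decreases were not particular to Cdk6-K43M.

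Genes of B-lineage cells followed among the largest decreases. Ly6d, a marker of lymphoid progenitors bound for the B lineage, stood at -2.59, -2.88, -2.51 and -3.69 and fell by 2.80 (SE 0.29, adjusted p = 9.24e-04). Fcrla, an Fc receptor-like protein of B cells, fell by 2.70 (SE 0.32, adjusted p = 0.00157), and Ms4a1, which encodes CD20, fell by 2.67 (SE 0.40, adjusted p = 0.00371). The samples ranged from -3.33 to -1.93 for Fcrla and from -3.63 to -2.08 for Ms4a1, so neither overlapped the pool's level of 0. Ly86, the partner of the surface protein CD180, stood at -2.16, -1.95, -5.21 and -2.28. Replicate 3 lay far below the others for Ly86, and the fitted change was -2.83 (SE 0.57, adjusted p = 0.0122). The call of Ly86 was lost without the dye-swap array (adjusted p = 0.116), as was that of Ms4a1 (adjusted p = 0.0581).

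The other genes of the lowest 12 were of varied function. Laptm4b, a lysosomal membrane protein, fell by 2.19 (SE 0.19, adjusted p = 3.92e-04), and 3 of 4 samples lay well above background. Its fitted change in Cdk6-/- was -2.11. Serpina3f, a serine protease inhibitor, fell by 2.16 (SE 0.40, adjusted p = 0.00859), and Myl4, a myosin light chain, fell by 2.11 (SE 0.29, adjusted p = 0.00263). Emid1 ranged from -3.96 in replicate 4 to -0.68 in replicate 2, with a fitted change of -2.13 (adjusted p = 0.0142). Mtus2 was not well above background in any Cdk6-K43M sample but was in 10 of 10 wild-type channels. By mean channel signals it was 5.42-fold lower, with a fitted change of -2.40 (5.29-fold, adjusted p = 0.0318). Such a channel value sets the bright channel against the other, with signals below the dimmest one counted above background raised to it. It has no correction for dye bias, can lie above the dye-corrected fit, and is not a strict lower limit. The calls of Serpina3f, Emid1 and Mtus2 were lost without the dye-swap array, with Mtus2 at -1.86, and that of Mtus2 also without replicate 4 (adjusted p = 0.0509).

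Gbp2b, an interferon-inducible GTPase of the guanylate-binding protein family, showed the largest increase among genes with a plain symbol. It stood at 4.43, 3.59, 2.59 and 6.25 in replicates 1 to 4 and at 5.33 on the dye-swap array. All samples were raised, over a wide range, and the fitted change was 4.62 (SE 0.47, adjusted p = 7.48e-04). Its relatives Gbp2 (-0.67), Gbp3 (0.17), Gbp6 (-0.01) and Gbp7 (0.29) did not pass the test. Members of this family are close in sequence, so RNA of a near copy could be read by the same probe. Tmem40, a transmembrane protein, stood at 3.60, 3.12, 4.16 and 2.96 and rose by 3.58 (SE 0.24, adjusted p = 1.2e-04). Its samples kept close to each other, with the lowest value in replicate 4.

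Several other increases were seen in genes of the cell surface. Thy1, the glycoprotein CD90 of T cells and some progenitors, stood at 3.42, 3.08, 1.28 and 2.67 and rose by 2.79 (SE 0.44, adjusted p = 0.00441). Scn4b, a sodium channel beta subunit, had one of the tightest patterns, at 1.65, 1.73, 1.99 and 2.07, and rose by 2.01 (SE 0.091, adjusted p = 1.51e-05). Pcdh17, a protocadherin, ranged from 0.91 to 4.08 and rose by 2.63 (SE 0.58, adjusted p = 0.0166), with the wild-type channel above background on 2 of 10 arrays. Tnfsf11, the cytokine RANKL, ranged from 0.41 in replicate 3 to 3.08 in replicate 4 and rose by 1.97 (SE 0.38, adjusted p = 0.00966). Ifitm1, an interferon-induced membrane protein, split the samples, with 3.5 and 3.96 in replicates 2 and 4 and 0.68 and 0.08 in replicates 1 and 3. Its fitted change of 2.42 (adjusted p = 0.0414) did not pass without replicate 4 (adjusted p = 0.0635). The calls of Thy1, Pcdh17, Tnfsf11 and Ifitm1 were lost without the dye-swap array, and that of Ifitm1 was lost under 12 of 22 alternatives.

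Enzymes were also among the highest 12. Pomgnt2, a glycosyltransferase that extends O-mannosyl sugars on dystroglycan, stood at 2.29, 3.03, 2.48 and 3.08 and rose by 2.50 (SE 0.17, adjusted p = 1.27e-04). Rdh10, a retinol dehydrogenase on the path to retinoic acid, stood at 1.83, 2.39, 1.37 and 4.02 and rose by 2.52 (SE 0.40, adjusted p = 0.00447). Replicate 4 was well above the others for Rdh10. Fam183b ranged from 1.36 to 2.73 and was not well above background in any of the 10 wild-type channels. By channel signals it was 4.64-fold higher, with a fitted change of 2.06 (4.18-fold, adjusted p = 4.54e-04). Tmem121 rose by 1.78 (SE 0.32, adjusted p = 0.00727). The calls of Rdh10 and Tmem121 were lost without the dye-swap array.

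**Figure D2:**
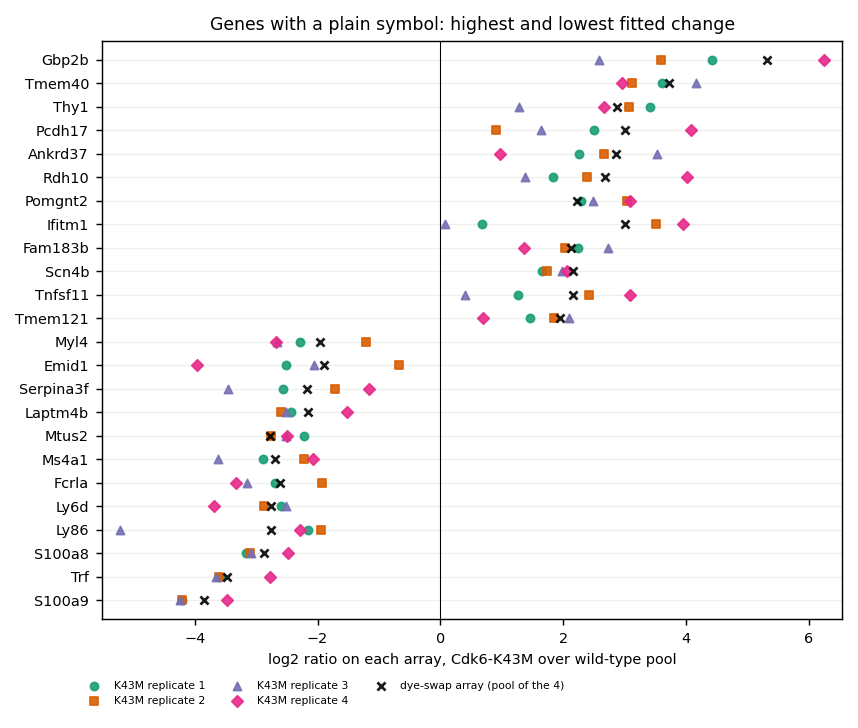
Log2 ratio of Cdk6-K43M over the wild-type pool (horizontal axis) on each of the 4 single-sample arrays (coloured symbols) and on the dye-swap array of their pooled RNA (cross) for the 12 highest and the 12 lowest fitted changes that passed the test, among genes with a plain symbol and one sign on all 5 arrays. S100a9, Trf and Scn4b kept the samples close together, while Gbp2b ran from 2.59 to 6.25 and Ifitm1 from 0.08 to 3.96.

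The targets of p53, the transcription factor that answers DNA damage and oncogenic stress, were taken first. Of 51 measured members of the list, 22 fell, 1 rose and 28 did not pass, while 8.44% of all genes tested fell and 7.91% rose. The median over the 51 genes was -0.28, against -0.01 over all genes, and it was -0.28, -0.27, -0.56 and -0.21 in replicates 1 to 4. It stayed below 0 under all alternatives, from -0.36 to -0.08. The counts were the same without replicate 4, 4 fell and 1 rose with the pool's spread allowed for, and 2 fell and 1 rose without the dye-swap array. With median centring 10 fell and 4 rose, where 5068 of all 22008 genes rose.

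The p53 targets that fell included inducers of cell death. Bbc3, which encodes the BH3-only protein PUMA, stood at -0.65, -0.90, -1.37 and -1.32 and fell by 1.05 (SE 0.14, adjusted p = 0.00218). Pmaip1, which encodes NOXA, fell by 1.18 (adjusted p = 0.0345), and Bax, the pore-forming effector, fell by 0.45 (SE 0.095, adjusted p = 0.014). Every sample was below the pool for Bbc3 and Bax. Trp53inp1, a p53-induced stress protein, stood at -0.80, -0.75, -0.73 and -1.13 and fell by 0.72 (SE 0.10, adjusted p = 0.00329). Dcxr, a xylulose reductase, stood at -0.40, -0.71, -0.56 and -0.32 and fell by 0.53 (SE 0.072, adjusted p = 0.00266).

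Members with other roles in the p53 response moved less evenly. Mdm2, the ubiquitin ligase that degrades p53, fell by 0.25 (adjusted p = 0.016), and Ccng1, a cyclin G, fell by 0.46 (adjusted p = 0.00799). Cdkn1a, the CDK inhibitor p21, had a fitted change of -0.19 and did not pass (adjusted p = 0.422). Apaf1, the scaffold of the apoptosome, was the member that rose, by 0.38 (SE 0.044, adjusted p = 0.0013), while its other probe stood at -0.05. Pmaip1, Mdm2, Ccng1 and Cdkn1a were chosen to be named after their values were seen. Dcxr is shown as an example of a p53 target that was below the pool in every sample. Its promoter, the 250 bases before the RefSeq start (GRCm38.p6, minus strand, chr11:120727285-120727534), holds CCAAT letters 2 times. Capitals mark the CCAAT box bound by NF-Y (CCAAT or ATTGG) and the GC box bound by SP factors (GGGCGG or CCGCCC), and the letters of these motifs do not overlap each other.
Dcxr: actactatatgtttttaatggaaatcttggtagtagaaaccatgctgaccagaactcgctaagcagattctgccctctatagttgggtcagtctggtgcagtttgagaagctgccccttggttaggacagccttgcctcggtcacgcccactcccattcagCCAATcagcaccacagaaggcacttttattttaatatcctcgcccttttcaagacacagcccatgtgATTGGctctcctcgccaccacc

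The CCAAT letters were found in 33.8% and the GC box letters in 32.7% of the 32851 promoters of this length in the table. Among promoters of the genes tested the shares were 35.3% and 53.5%. A gene may have several starts, and each counted once. Promoters of genes that were lower in Cdk6-K43M held CCAAT letters in 39.8% of cases (548 of 1377) and those of higher genes in 34.0% (476 of 1402). For p53 targets the share was 39.7% over 63 promoters of measured members and 61.5% over 26 promoters of members that fell. These are descriptions of letters, with no test.

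Members of the BCL2 family that are not on the p53 list also changed. Bmf, a BH3-only protein released from the cytoskeleton, stood at -1.67, -1.20, -0.73 and -1.58 and fell by 1.45 (SE 0.24, adjusted p = 0.0052). Bid, which links death receptors to mitochondria, rose by 0.68 (SE 0.093, adjusted p = 0.0026), with samples between 0.64 and 0.80. Of 14 measured members of the whole family 4 fell and 2 rose (42.9%, against 16.3% of all genes). Bbc3 and Bax are among those that fell and were already counted with the p53 targets, so the counts of these lists are not separate. The protective members Bcl2 (0.85, adjusted p = 0.214), Bcl2l1 (-0.22, adjusted p = 0.192) and Mcl1 (-0.16, adjusted p = 0.204) did not pass, and they were chosen after their values were seen. Without the dye-swap array 1 fell and 1 rose, Bbc3 and Bid. The list's median was -0.10 and turned to 0.15 with median centring.

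Of 50 measured genes of DNA replication 18 fell (36.0%, against 8.44% of all genes) and 0 rose by limma's adjusted p. With an unadjusted p under 0.05 the counts were 28 and 1, against 3488 and 3307 of all 22008 genes. The list's median was -0.21, with -0.27, -0.52, -0.21 and -0.24 in replicates 1 to 4, lowest in replicate 2. Rrm2, the regulated subunit of ribonucleotide reductase, stood at -0.79, -1.29, -0.76 and -0.87 and fell by 0.68 (SE 0.094, adjusted p = 0.00266). Dbf4, the activator of the CDC7 kinase, fell by 0.57 (SE 0.090, adjusted p = 0.00444). The single-strand binding proteins Rpa1 and Rpa2 fell by 0.40 (adjusted p = 0.00615) and by 0.32 (adjusted p = 0.00628). Without replicate 4 the count was 16, with the pool's spread allowed for it was 2, and without the dye-swap array it was 0 by limma's adjusted p and 19 at an unadjusted p under 0.05. With median centring 3 members fell and 5 rose, where 5068 of all 22008 genes rose. The list's median was then 0.03 beside 0.11 over all genes.

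The promoter of Rrm2 is shown because it had the smallest p of these replication genes. It lies on the plus strand at chr12:24708004-24708253 (GRCm38.p6) and holds CCAAT letters 1 time and GC box letters 2 times, marked as above. CCAAT letters were present in 63.6% of the 22 promoters of replication genes that fell and in 55.3% of the 47 promoters of those measured.
Rrm2: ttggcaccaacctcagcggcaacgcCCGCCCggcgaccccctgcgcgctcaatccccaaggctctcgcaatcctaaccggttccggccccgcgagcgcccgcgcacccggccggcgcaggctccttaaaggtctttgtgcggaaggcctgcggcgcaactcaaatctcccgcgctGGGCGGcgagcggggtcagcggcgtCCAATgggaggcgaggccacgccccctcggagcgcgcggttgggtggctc

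Regulators of the G1 phase moved in both directions. Of 30 CDKs, cyclins, inhibitors, RB and E2F proteins measured, 4 fell and 4 rose (26.7%, against 16.3% of all genes). E2f8, a repressing E2F, stood at -1.37, -1.62, -0.96 and -1.52 and fell by 1.30 (SE 0.20, adjusted p = 0.00408). E2f1, an activating E2F, fell by 0.42 (SE 0.088, adjusted p = 0.0143), and Rb1 and Rbl2, which encode RB and p130, fell by 0.38 (adjusted p = 0.0159) and by 0.27 (adjusted p = 0.0292). E2f5 and E2f6 rose by 0.34 (adjusted p = 0.0141) and 0.51 (adjusted p = 0.00675). Ccnd1, which encodes the CDK6 partner cyclin D1, rose by 1.45 (adjusted p = 0.0222), while Cdk4 (-0.09), Ccnd2 (-0.45) and Ccnd3 (0.26) did not pass. Rb1, Rbl2 and the cyclin genes were chosen after their values were seen. Without the dye-swap array 0 of the 30 genes passed by limma's adjusted p. There 6 lower and 3 higher genes lay under an unadjusted p of 0.05, with no count over all genes to set beside them. With median centring 7 rose and 1 fell, where 5068 of all 22008 genes rose. With the pool's spread allowed for, E2f8 alone of these genes passed (adjusted p = 0.0441).

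Among mitotic genes 7 of 40 fell and 1 rose (20%, against 16.3% of all genes). Nek2, a centrosome kinase, stood at -1.18, -1.02, -1.06 and -1.07 and fell by 0.97 (SE 0.068, adjusted p = 1.27e-04). Incenp, a scaffold of the Aurora B complex, fell by 0.44 (SE 0.063, adjusted p = 0.0031), and Ccnb1, which encodes cyclin B1, fell by 0.49 (SE 0.078, adjusted p = 0.00487). Prc1, a crosslinker of spindle microtubules, fell by 0.33 (adjusted p = 0.0114), while its other probe stood at 0.12. Genes of DNA damage repair gave 8 decreases and 1 increase among 37 (24.3%). Bard1 and Brca1, partners in 1 ubiquitin ligase, fell by 0.70 (SE 0.064, adjusted p = 4.91e-04) and by 0.63 (SE 0.11, adjusted p = 0.00584). Of these, 2 mitotic genes and 1 repair gene fell without the dye-swap array. Nek2 and Bard1 kept their calls under each of the 22 alternatives. The medians of the mitotic and repair lists were -0.09 and -0.02 and turned to 0.11 and 0.17 with median centring.

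**Figure D3:**
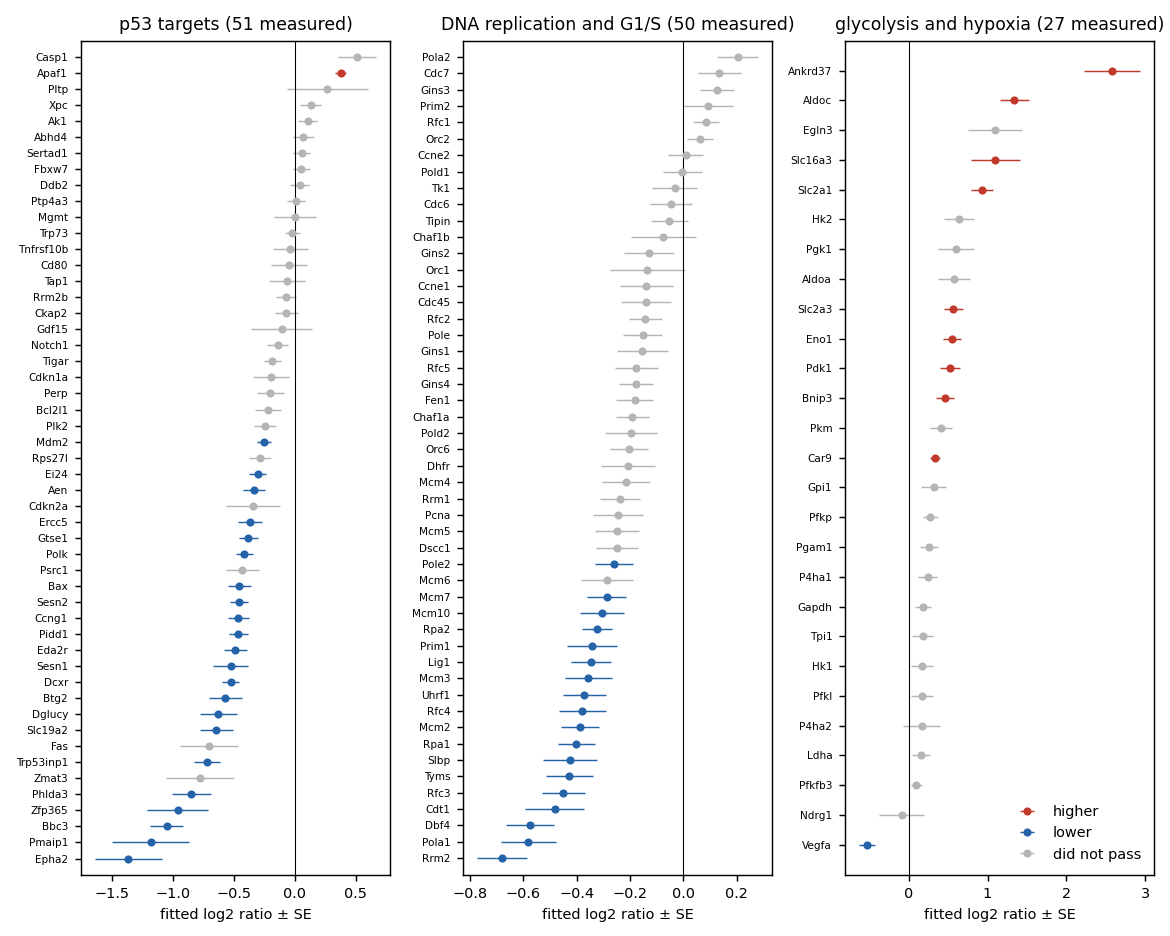
Fitted log2 ratio of Cdk6-K43M over the wild-type pool with its standard error (horizontal axes, which differ in range) for every measured member of the p53 target list (51 genes), the DNA replication list (50) and the glycolysis and hypoxia list (27). Blue and red points fell or rose, grey points did not pass: 22 p53 targets and 18 replication genes fell, and 9 glycolysis and hypoxia genes rose.

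Of 27 measured genes of glycolysis and the hypoxia response 9 rose, 1 fell and 17 did not pass (37.0% called, against 16.3% of all genes), and the median was 0.33, with 0.12, 0.35, 0.53 and 0.23 in replicates 1 to 4. The median lay above 0 under all alternatives, from 0.27 to 0.65. Ankrd37, a target of the hypoxia-inducible factors, stood at 2.26, 2.67, 3.52 and 0.98 and rose by 2.58 (SE 0.36, adjusted p = 0.00275). Aldoc, an aldolase, stood at 1.52, 1.58, 0.60 and 1.40 and rose by 1.34 (SE 0.19, adjusted p = 0.00278). Slc2a1, the glucose transporter GLUT1, stood at 0.89, 1.21, 1.48 and 0.66 and rose by 0.93 (SE 0.14, adjusted p = 0.00363). Car9, a carbonic anhydrase induced by hypoxia, rose by 0.33 (SE 0.063, adjusted p = 0.00938). Every sample lay above the pool for these 4 genes.

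The exception was Vegfa, the vascular growth factor, which is a hypoxia target and a gene that CDK6 is known to bind. It stood at -0.21, -0.19, -0.28 and -0.84 and fell by 0.53 (SE 0.10, adjusted p = 0.0111). Ldha (0.15), Gapdh (0.18) and Pfkl (0.17) did not pass and were chosen after their values were seen. Without replicate 4, 8 members rose and 1 fell. With median centring 20 rose, where 5068 of all 22008 genes rose. With the pool's spread allowed for 3 rose, and without the dye-swap array 2 rose, Ankrd37 and Aldoc. Vegfa did not pass there. Of the 5 genes known for CDK6 at their promoters that were measured, Vegfa was the one that passed (20%, against 16.3% of all genes). Egr1 stood at 0.02, Flt3 at -0.37, Cdkn2a at -0.34 and Pim1 at -0.24, and these did not pass.

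Of 32 measured members of the list of ATF4, unfolded protein and heat shock genes, 10 fell and 2 rose (37.5% against 16.3% of all genes). Trib3, a pseudokinase induced by ATF4, stood at 1.01, 1.86, 1.65 and 1.85 and rose by 1.51 (SE 0.14, adjusted p = 4.91e-04). Chac1, which degrades glutathione and is induced by ATF4, rose by 1.15 (SE 0.16, adjusted p = 0.00251). Hsp90b1, the chaperone GRP94, stood at -1.06, -0.90, -1.18 and -0.65 and at -0.40 on the dye-swap array, and fell by 0.65 (SE 0.088, adjusted p = 0.00253). Pdia6, a disulfide isomerase, stood at -0.91, -0.89, -0.93 and -0.60 and at -0.34 on the dye-swap array, and fell by 0.60 (SE 0.079, adjusted p = 0.00226). Both were closer to 0 on the dye-swap array than in any sample. The ATF4 targets did not move one way: Sesn2, a stress-induced sestrin, fell by 0.46 (adjusted p = 0.00452) and Psat1, an enzyme of serine synthesis, fell by 0.38 (adjusted p = 0.00427), while Asns (0.44) and Ddit3 (0.27) did not pass. Among genes of the endoplasmic reticulum Xbp1 (-0.51), Herpud1 (-0.37) and Manf (-0.05) did not pass. These 7 genes were named after seeing their values. The list's median of -0.16 turned to 0.10 with median centring, where 11 members rose and 4 fell, and 5068 of all 22008 genes rose. Without the dye-swap array 2 fell and 2 rose.

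The promoters of Hsp90b1 and Pdia6 are shown because they had the smallest p of the members that fell. Hsp90b1 (minus strand, chr10:86705445-86705694) holds CCAAT letters 5 times and Pdia6 (plus strand, chr12:17266339-17266588) holds them 2 times, with GC box letters 2 times and 5 times. CCAAT letters were in 10 of 11 promoters of members of this list that fell (90.9%) and in 67.7% of the 31 promoters of those measured.
Hsp90b1: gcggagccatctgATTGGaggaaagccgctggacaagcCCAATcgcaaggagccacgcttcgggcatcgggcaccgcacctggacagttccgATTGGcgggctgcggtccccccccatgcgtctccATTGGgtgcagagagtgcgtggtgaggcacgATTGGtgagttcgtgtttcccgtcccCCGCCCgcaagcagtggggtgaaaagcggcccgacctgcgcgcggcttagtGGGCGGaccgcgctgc
Pdia6: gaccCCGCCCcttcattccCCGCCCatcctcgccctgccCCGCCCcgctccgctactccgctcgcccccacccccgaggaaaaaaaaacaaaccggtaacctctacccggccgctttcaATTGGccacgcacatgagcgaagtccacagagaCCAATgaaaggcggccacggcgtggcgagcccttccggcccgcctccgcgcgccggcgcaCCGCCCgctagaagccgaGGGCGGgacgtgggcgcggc

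Signalling genes near BCR-ABL changed in part. Of 25 members of the BCR-ABL and STAT5 list 5 fell and 2 rose (28%, against 16.3% of all genes). Socs2, a feedback inhibitor induced by STAT5, stood at -0.79, -0.63, -0.98 and -0.95 and fell by 0.90 (SE 0.089, adjusted p = 6.84e-04). Cish, another STAT5 target, fell by 0.39 (SE 0.091, adjusted p = 0.0206). Lyn, a SRC-family kinase, stood at -0.98, -1.06, -0.75 and -1.67 and fell by 0.98 (SE 0.14, adjusted p = 0.00274). Gab2, an adaptor that binds BCR-ABL through GRB2, rose by 0.56 (SE 0.12, adjusted p = 0.0142). Socs2 and Lyn kept their calls under each of the 22 alternatives and were the members that passed without the dye-swap array. The median of the list was -0.06 and turned to 0.11 with median centring.

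Immediate early and ERK feedback genes moved in both directions, with 4 of 30 higher and 4 lower (26.7%, against 16.3% of all genes). Spry1, a feedback inhibitor of RAS and ERK signalling, had one of the most even patterns, at 0.84, 0.88, 0.87 and 0.74 and at 0.95 on the dye-swap array. It rose by 0.87 (SE 0.048, adjusted p = 5.08e-05). Klf2, a factor of lymphocyte quiescence, stood at -1.40, -0.96, -1.45 and -1.08 and fell by 1.09 (SE 0.10, adjusted p = 4.91e-04). Ier2 rose by 0.54 (SE 0.078, adjusted p = 0.00333) and the ERK phosphatase gene Dusp1 by 0.46 (SE 0.075, adjusted p = 0.00526). Fos (0.41, adjusted p = 0.422) and Dusp6 (0.56, adjusted p = 0.211) did not pass and were chosen after their values were seen. Among 32 genes of ribosome production and MYC, 4 rose and 2 fell (18.8%), a share near the 16.3% of all genes. Mnt, a MAX-binding repressor that opposes MYC, stood at -0.58, -0.59, -0.74 and -0.81 and fell by 0.62 (SE 0.065, adjusted p = 9.44e-04), while Dkc1, a pseudouridine synthase, rose by 0.40 (SE 0.075, adjusted p = 0.00966). When the dye-swap array was left out, 2 immediate early genes rose and 1 fell, and 1 gene of ribosome production and MYC fell. Spry1, Klf2 and Mnt kept their calls under each of the 22 alternatives.

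Interferon-stimulated genes differed between the samples. The median over 39 genes was -0.40, -0.44, -0.93 and 0.65 in replicates 1 to 4, so replicate 4 was on the other side of the pool. With all samples 3 rose and 1 fell (10.3%, against 16.3% of all genes), and without replicate 4, 2 rose and 8 fell. Stat2, a subunit of the interferon-activated factor, stood at -0.36, -0.69, -1.21 and -0.11 and fell by 0.61 (adjusted p = 0.0442). Psmb8, a subunit of the immunoproteasome, rose by 0.34 (SE 0.056, adjusted p = 0.00542) and Tap2, a peptide transporter, by 0.45 (SE 0.10, adjusted p = 0.0172). NF-kappaB genes gave 4 decreases and 1 increase among 23 (21.7%, against 16.3% of all genes). Relb, a subunit of NF-kappaB, stood at -1.02, -1.10, -0.63 and -0.87 and fell by 0.78 (SE 0.11, adjusted p = 0.00328), and Tnfaip3, the inhibitor A20, rose by 1.08 (SE 0.26, adjusted p = 0.0227). Cholesterol and fatty acid synthesis gave 2 increases and 1 decrease among 30 (10.0%, below the share of all genes), with Insig1, a retention protein for sterol sensing, at -0.63 (adjusted p = 0.0202). The median of the NF-kappaB list was -0.11 and that of the cholesterol list 0.04, and both changed sign among the alternatives. Without the dye-swap array 0 genes of these 3 lists passed by limma's adjusted p. Under an unadjusted p of 0.05 lay 2 higher interferon genes, 1 higher and 3 lower NF-kappaB genes, and 2 higher and 2 lower cholesterol genes. No count over all genes was made for that setting.

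Markers of the cell types a colony could hold were examined next. In bulk RNA, fewer cells of a type and less RNA per cell cannot be told apart. B-lineage factors and surface antigens were well above background in all 4 samples for each of the 30 measured genes, and so were the pre-B cell genes Igll1, Vpreb1 and Cd79a. Of these 30 genes 11 fell and 3 rose (46.7% called, against 16.3% of all genes). Their medians were -0.29, -0.30, -0.13 and -0.50 in replicates 1 to 4. Pou2af1, a B-cell coactivator of octamer factors, fell by 0.60 (SE 0.085, adjusted p = 0.00295), and Cd79b, a signalling chain of the B-cell receptor, fell by 0.51 (SE 0.072, adjusted p = 0.00285). Spn, which encodes CD43 of early B cells, rose by 0.52 (SE 0.051, adjusted p = 6.32e-04). The B-lineage master factors differed in outcome: Ebf1 rose by 0.40 (adjusted p = 0.00903), Ikzf1 fell by 0.30 (adjusted p = 0.0235), and Pax5 at -0.07 did not pass. These 3 were chosen after their values were seen. Without the dye-swap array 2 fell and 1 rose. With median centring 7 of the 30 rose and 5 fell, where 5068 of all 22008 genes rose. The median changed from -0.16 to 0.06.

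In the list of the pre-B cell receptor and V(D)J recombination 3 of 15 rose and 4 fell (46.7%, against 16.3% of all genes). Rag2, a subunit of the recombinase, stood at 0.57, 1.36, 1.28 and 1.45 and rose by 1.14 (SE 0.20, adjusted p = 0.00736). Rag1 (0.77, adjusted p = 0.049) and Dntt, the terminal transferase (0.68, adjusted p = 0.0489), were the others that rose, named to complete the count. Syk, a kinase downstream of the pre-B cell receptor, fell by 0.56 (SE 0.079, adjusted p = 0.00279). Dclre1c, the nuclease Artemis, fell by 0.42 (SE 0.076, adjusted p = 0.00812), while its other probes stood at -0.09 and 0.10. Cd79b was the member that passed without the dye-swap array.

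Granulocyte, monocyte and macrophage markers gave 9 decreases and 0 increases among 30 measured by limma's adjusted p (30%, against 16.3% of all genes). At an unadjusted p under 0.05 there were 10 decreases and 2 increases, against 3488 and 3307 of all 22008 genes. The list's medians were -0.71, -0.35, -0.74 and 0.73, so replicate 4 lay above the pool while the others lay below it. Besides S100a8 and S100a9, Chil3, a chitinase-like protein of macrophages and neutrophil precursors, stood at -1.35, -1.52, -1.29 and -0.63 and fell by 1.04 (SE 0.14, adjusted p = 0.00251). The fitted change of Chil3 in Cdk6-/- was -1.02. Camp, a granule protein of neutrophils, was not well above background in any Cdk6-K43M sample. By channel signals Camp was 1.46-fold lower, with a fitted change of -0.52 (adjusted p = 0.00216). Adgre1, Cd68 and Csf1r, markers of macrophages, had fitted changes of -0.14, 0.10 and 0.12 and did not pass. Without replicate 4, 10 members fell, and without the dye-swap array 4 fell. The part that myeloid cells in the colonies play in the changes of other genes was not tested.

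T and NK cell genes gave 3 increases and 1 decrease among 15 measured (26.7% called, against 16.3% of all genes). The increases were Thy1, Tcf7 (0.31, adjusted p = 0.0126) and Lat (1.05, adjusted p = 0.0182), and the decrease was Cd5 (-0.98, adjusted p = 0.00861). MHC class II genes gave 1 decrease, Cd74 (-1.27, adjusted p = 0.0185), and 1 increase, H2-DMb1 (0.76, adjusted p = 0.0242), among 14 (14.3% called). Erythroid and megakaryocyte genes gave 1 increase among 10 (10% called), Nfe2 at 0.85 (SE 0.13, adjusted p = 0.00389), with 4 of 10 wild-type channels above background. Stem and progenitor genes gave 1 increase, Ly6a (1.60, adjusted p = 0.0498), and 1 decrease, Bmi1 (-0.30, adjusted p = 0.0443), among 11 (18.2% called). Ly6a, the stem cell antigen SCA-1, ran from 0.14 in replicate 1 to 3.24 in replicate 4, and neither gene passed without replicate 4. Mast cell genes gave 1 decrease among 3 (33.3% called), Il5ra at -0.84 (adjusted p = 0.0269). Of 6 stromal and endothelial genes 0 passed limma's test, with 1 under an unadjusted p of 0.05. Of the genes in this paragraph Nfe2 passed without the dye-swap array.

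**Figure D4:**
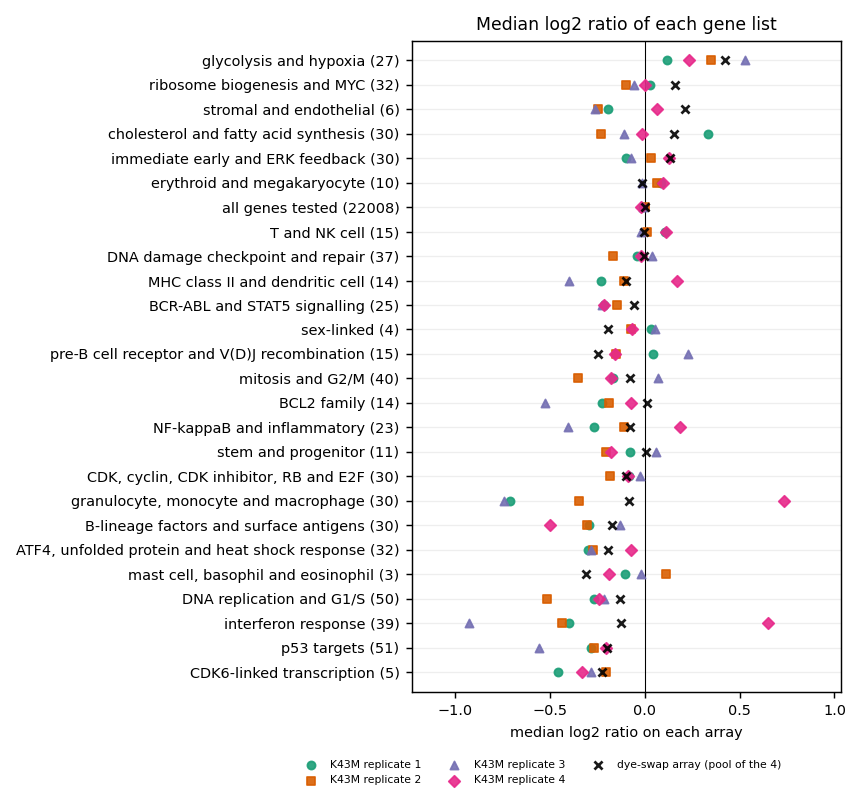
Median log2 ratio of Cdk6-K43M over the wild-type pool (horizontal axis) over the measured members of each gene list (number in brackets) on each of the 4 single-sample arrays and on the dye-swap array. Replicate 4 lies at 0.65 for the interferon list and 0.73 for the granulocyte, monocyte and macrophage list, where the other 3 samples lie below 0. The p53 and DNA replication lists lie below 0 and the glycolysis and hypoxia list above 0 on all arrays.

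Y-linked genes were compared as a check of the donors' sex. Ddx3y, Kdm5d and Uty lay between -0.15 and 0.15 in all 4 samples and were well above background there. Eif2s3y stood at -5.29 in replicate 2 and between -0.05 and 0.18 in the other 3 samples, and it was well above background in 3 of 4 samples. The Y-linked genes thus did not move together in replicate 2.

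To see where the kinase-dead genotype differs from the knockout, Cdk6-K43M was set against Cdk6-/- on the 8 arrays of single samples, in which the pool and the dye effect drop out. Of 22008 genes 113 (0.513%) passed, 58 higher and 55 lower in Cdk6-K43M. In each of the 113 the samples of the genotypes did not overlap, against 8.19% of all genes tested. The test that chose these genes used the same arrays, so this adds no separate support. The 4 samples of a genotype set the count: leaving out 1 sample gave 36 to 77 genes, lowest without Cdk6-/- replicate 1. With slide as a block 33 genes passed. Signs within a slide add nothing here, as groups that do not overlap keep theirs. By limma without adjustment 3094 genes had a p-value under 0.05. Of the 113 genes 100 also passed in Cdk6-K43M against the pool. The median standard error of a difference was 0.11, so small differences could not be seen.

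Tmem40 was 3.48 higher in Cdk6-K43M than in Cdk6-/- (SE 0.34, adjusted p = 0.00446), where the Cdk6-/- samples had a mean of -0.02. Gbp2b was 4.63 higher (SE 0.65, adjusted p = 0.0247), with a Cdk6-/- mean of -0.42 ± 0.29 (SD, n = 4). The call of Gbp2b was lost under 7 of 18 alternatives. Gbp2b was well above background in 1 of 4 Cdk6-/- samples. Fam183b and Pianp, a ligand of the inhibitory receptor PILRA, stood well above background in 0 of 4 Cdk6-/- samples, with Fam183b above it in 0 and Pianp in 1 of 10 wild-type channels. By signals of the mutant channels Fam183b was 4.89-fold higher in Cdk6-K43M (fitted difference 2.03, SE 0.25, adjusted p = 0.0132). Pianp was 3.09-fold higher (fitted difference 1.5, SE 0.13, adjusted p = 0.00208). These channel values are not ratios to the pool. Both lay above the fitted difference, so they are not lower limits. The Cdk6-/- means of Fam183b and Pianp were 0.06 and -0.14. The Cdk6-/- samples of these 4 genes lay between -0.65 and 0.23 apart from replicate 4 for Tmem40, at 0.86. Uchl1, a ubiquitin hydrolase, followed another pattern. It ran from the pool's level to below it in Cdk6-K43M, at -1.29, 0.06, -0.79 and -0.33. That change of -0.48 did not pass limma's test (adjusted p = 0.143), and Uchl1 stood at a mean of -2.94 in Cdk6-/-. The difference was 2.35 (SE 0.28, adjusted p = 0.0103). Pir, an iron-binding nuclear protein, was 1.72 higher (SE 0.29, adjusted p = 0.0482), it was well above background in 1 of 4 Cdk6-/- samples, and its call was lost under 11 of 18 alternatives.

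Of the genes with a plain symbol that were lower in Cdk6-K43M than in Cdk6-/-, Cand2, an exchange factor of cullin ligases, differed most. It stood at -2.19, -2.46, -1.94 and -1.39 in Cdk6-K43M, well above background in 1 of 4 samples, and at a mean of -0.18 in Cdk6-/-, a difference of -1.81 (SE 0.21, adjusted p = 0.00989). Mettl23, a methyltransferase, stood at -1.28, -1.38, -1.29 and -1.75 and differed by -1.55 (SE 0.12, adjusted p = 0.00159). Trim12a and the zinc transporter gene Slc39a11 differed by -1.34 (adjusted p = 0.00515) and -1.32 (adjusted p = 0.00809), and both were below the pool in Cdk6-K43M and near it in Cdk6-/-. H2-Q5, a class Ib histocompatibility gene, and Pisd-ps3 were near the pool in Cdk6-K43M, at means of -0.28 and -0.14, and above it in Cdk6-/-, at 1.21 and 1.15. Their differences were -1.49 (adjusted p = 0.0103) and -1.29 (adjusted p = 0.0065). H2-Q5 and Pisd-ps3 have near-identical copies in the genome, so which copy was read is uncertain, and the other probe of Pisd-ps3 stood at 0.04 against the pool.

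**Figure D5:**
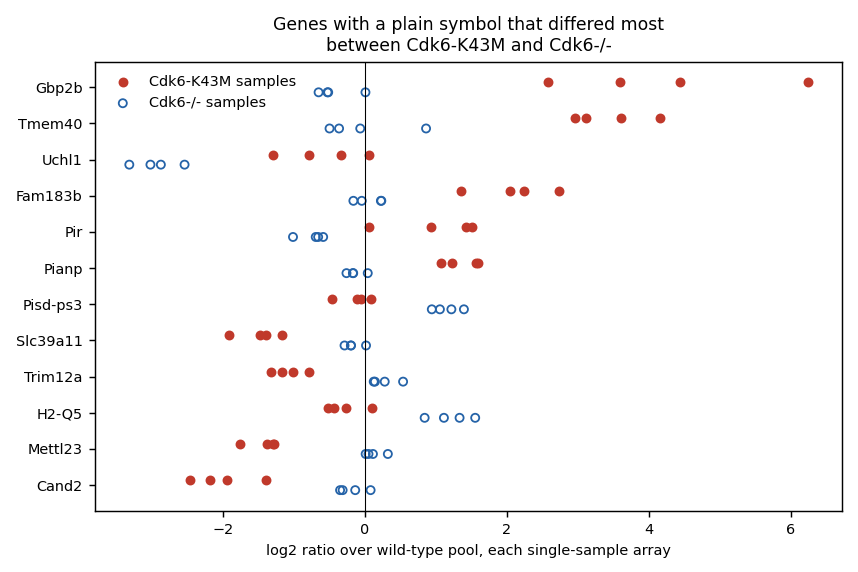
Log2 ratio over the wild-type pool (horizontal axis) in each Cdk6-K43M sample (filled red) and each Cdk6-/- sample (open blue) for the 6 highest and the 6 lowest differences that passed the test among genes with a plain symbol, no clone, accession or predicted gene. The samples of the genotypes do not overlap for any of the 12 genes, which was a condition of their choice. Uchl1, Pisd-ps3 and H2-Q5 are displaced from the pool mainly in Cdk6-/-, and the others in Cdk6-K43M or, for Pir, in both genotypes.

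Between the genotypes 4 of 581 list members differed (0.688%), a share near the 0.513% of all genes. Spry1 was 0.76 higher in Cdk6-K43M than in Cdk6-/- (SE 0.067, adjusted p = 0.00236), where its Cdk6-/- mean was 0.07. Ier2 was 0.66 higher (adjusted p = 0.0441), Tcf7 was 0.52 higher (adjusted p = 0.047) and Mnt differed by -0.57 (adjusted p = 0.0405). Tcf7 was well above background in 0 of 4 Cdk6-/- samples, so the size of its difference is limited by the background. Scn4b, which was also above the pool in Cdk6-/- (mean 0.72), was 1.14 higher in Cdk6-K43M (SE 0.13, adjusted p = 0.00802). By limma's adjusted p 0 members of the p53, DNA replication and glycolysis and hypoxia lists passed, and at an unadjusted p under 0.05 there were 8 of 51, 3 of 50 and 9 of 27, against 14.1% of all genes. The comparisons with the pool share its RNA and the dye term, and the median change of the p53 list was -0.28 in Cdk6-K43M and -0.28 in Cdk6-/-. For glycolysis and hypoxia the medians were 0.33 and 0.07. In Cdk6-/- against the pool 3.56% of genes passed. The difference of 0.70 for Cdk6 itself (SE 0.14, adjusted p = 0.0889) did not pass.

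The promoter of Spry1 is shown because its gene had one of the more even increases in Cdk6-K43M and differed from Cdk6-/-. It lies on the plus strand at chr3:37639697-37639946 (GRCm38.p6) and holds CCAAT letters 1 time and GC box letters 1 time, marked as above. CCAAT letters were in 9 of 11 promoters of the highest 12 genes (81.8%) and in 2 of 11 promoters of the lowest 12 (18.2%), from those genes that the table holds. These promoters belong to 10 and 8 genes. The share was 35.3% over promoters of all genes tested. Over all called genes the order was the other way, with 34.0% for higher and 39.8% for lower genes.
Spry1: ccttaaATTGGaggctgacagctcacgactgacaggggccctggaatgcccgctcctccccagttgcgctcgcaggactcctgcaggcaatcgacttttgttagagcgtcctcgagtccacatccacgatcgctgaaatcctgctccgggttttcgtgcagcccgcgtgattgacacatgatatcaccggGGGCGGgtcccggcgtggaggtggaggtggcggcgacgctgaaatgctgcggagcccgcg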

How the data were processed

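Total RNA of 4 Cdk6-K43M and 4 Cdk6-/- samples was hybridised against 1 pool of wild-type RNA on 2-colour Agilent arrays, with 1 dye-swap array a genotype. Intensity values of spots and local background were extracted by Feature Extraction 11.5.1.1 from Agilent, as given per the file headers. The deposited series table holds log2 values of both channels after loess. Its background correction is not given in the sources used, and 68 of its cells hold no number and were treated as missing. Per the labels' protocols, 100 ng RNA was amplified and labelled (Low Input Quick Amp, Agilent).

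The analysis of median signals used R 4.3.3 with limma 3.58.1 and the data.table package (version 1.17.8), with normexp background correction (offset 50) and loess within arrays without control spots. Spots found not uniform by the scanner software were set to missing, and spots of a probe were averaged. A probe was kept if well above background in at least 3 of 4 samples of a genotype or 5 of 10 wild-type channels. The brightest of 28177 kept probes stood for each of 22008 genes, and 4886 genes had several. Symbols came from RefSeq (GRCm38.p6) by transcript accession, which matched 58.3% of probes. The probes' build is mm9, so that no probe coordinates are printed, and the promoters are those of the RefSeq table.

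Changes against the pool were fitted by least squares on 10 arrays with a term for each genotype and for the dye. Residual spread came from the 8 single-sample arrays alone (6 residual and 2.86 prior degrees of freedom, median SE 0.076), as each swapped pool repeats RNA already on those arrays. The dye term was 0.064 in median size and passed in 1021 genes (4.64%). Adjusted p-values are Benjamini-Hochberg over all genes, threshold 0.05. The pool counts as 1 control sample, with no measured spread. The fits were tested on simulated data.

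Named were Cdk6, the 12 highest and 12 lowest called changes with a plain symbol and one sign on all 5 arrays, for each list up to 4 called members by smallest p, and 6 differences between the genotypes each way. Other genes were named after seeing their values. The members and lists were chosen with earlier results of these data known. Alternatives covered background, signals, normalization, filter, probe choice, slide, replicates, swaps, pool spread and pairing. The same-numbered samples of the genotypes were not treated as pairs.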

Additional observations from a re-analysis of the deposited data

Results flagged for a closer look

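With 4 samples, chance sets about 1 in 20 groups apart, and 13 of 129 values had 1 sample far from the other 3. Replicate 4 was that sample in 8 of them. On the log2 scale against the pool it stood at -3.48 for S100a9 (others -4.24 to -4.20), -2.78 for Trf (others -3.65 to -3.59), -2.47 for S100a8 (others -3.17 to -3.08) and -1.51 for Laptm4b (others -2.60 to -2.43). It was -0.599 for Pdia6 (others -0.931 to -0.895), -0.836 for Vegfa (others -0.285 to -0.187) and -1.13 for Trp53inp1 (others -0.80 to -0.731). The median of the ATF4, unfolded protein and heat shock list was -0.0739 in replicate 4 and -0.30 to -0.271 in the others.

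Replicate 3 stood apart for Ly86, at -5.21 (others -2.28 to -1.95), and for Cd79b, at -0.514 (others -0.828 to -0.777). Replicate 2 stood apart for Dclre1c, at -0.153 (others -0.478 to -0.43), for the median of the DNA replication list, at -0.518 (others -0.266 to -0.215), and for that of the BCR-ABL and STAT5 list, at -0.146 (others -0.225 to -0.214).

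For 17 named genes the change in Cdk6-K43M differed from that in Cdk6-/- by limma's test on the 8 single-sample arrays, with non-overlapping samples in each. Higher in Cdk6-K43M were Gbp2b by 4.63, Tmem40 by 3.48, Uchl1 by 2.35, Fam183b by 2.03, Pir by 1.72, Pianp by 1.5, Scn4b by 1.14, Spry1 by 0.759, Ier2 by 0.657 and Tcf7 by 0.52. The differences of Cand2 (-1.81), Mettl23 (-1.55), H2-Q5 (-1.49), Trim12a (-1.34), Slc39a11 (-1.32), Pisd-ps3 (-1.29) and Mnt (-0.571) had the other sign.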

How the results depend on the processing

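Against the wild-type pool 3597 genes passed. The count was 5730 with median centring, 5510 without the swapped arrays and dye term, 2368 with slide as a block, 1270 with the Cdk6-K43M arrays alone, 762 with standard errors widened for the pool and 535 without the Cdk6-K43M swapped array. Without replicate 4 and the swapped Cdk6-K43M pool, chosen after seeing the data, it was 425. Leaving out 1 replicate gave 2601 to 3458. Between the genotypes 113 genes passed. The count was 559 with all 10 arrays and the dye term, 73 with Agilent's processed signals and 33 with slide as a block, and leaving out 1 replicate gave 36 to 77. With median centring 126 passed and 65.9% of them were higher, against 51.3%. No named gene that passed in the reported fit passed with the other sign under an alternative. Of 95 named genes that passed against the pool, 36 also passed without the Cdk6-K43M swapped array and 88 without both swapped arrays and the dye term. With widened standard errors 47 passed, and with median centring 78. The cause of these shifts was not tested. Titles number the replicates of both genotypes, and no label says that a number marks a shared source. The correlation of same-numbered samples' deviations was 0.0838, -0.066, 0.228 and 0.139, so they were not taken as pairs, and with the replicate number as a block 37 genes passed, 30 of them shared with the fit without it. Signal over background limits S100a8, Mtus2, Camp, Cand2, Fam183b, Pianp and Pcdh17, and Tcf7 in Cdk6-/-. For these the dimmer side was at or near background on most arrays.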

Other observations

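Of the 12997 genes with a symbol, 68 differed between Cdk6-K43M and Cdk6-/-, while 0.513% of all genes tested did. Of these 68, 11 lay on chromosome 7 (1.05% of the 1050 tested there) and 8 on chromosome 6 (1.27% of 631). Another 8 lay on chromosome 5, where Cdk6 lies (1.03% of 778), and 7 on chromosome 17 (1.01% of 696). The other chromosomes held at most 6 each. Those on chromosome 6 include Tmem40, Pianp and Cand2, and also Lrp6, a WNT coreceptor, which stood 0.97 lower in Cdk6-K43M, at -0.97 (adjusted p = 0.00515). Lrp6 was chosen after its values were seen, and no test of position was made. Further genes outside the lists, also chosen after their values were seen, differed as well: Hdac1, a histone deacetylase, was at -0.63 (adjusted p = 0.0163), Plk3, a stress-responsive polo-like kinase, was 0.77 higher (adjusted p = 0.0201), and Ctsc, the lysosomal cathepsin C, was 0.84 higher (adjusted p = 0.0415).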
